A study of Homo sapiens with 16 samples.

Results

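The genes described are 46 genes of the cell cycle, 20 that act in or around S phase and 26 that act in mitosis, chosen by name from a list of such genes. That choice was made with earlier results of these data known. All 46 were among the 16558 genes of the deposited table, and all 46 passed the filter on low values that left 13095 genes for testing. RNA was sequenced from 8 clones of HepG2, a human hepatoma cell line with many traits of hepatocytes. Each clone had been prime edited, a method that rewrites single bases without cutting both DNA strands, at the I148M site of PNPLA3, a lipid droplet protein whose methionine form is associated with fatty liver disease. By genotype there were 3 clones with G/G (GG 1, 2 and 6), 3 with G/C (GC 2, 3 and 4) and 2 with C/C (CC 1 and 3), the G allele being the one that encodes methionine. Every clone gave 1 control library and 1 library from cells treated with palmitic acid, a saturated fatty acid, at 250 µM for 48 h according to the protocol, so that the 16 libraries form 6 groups. What the control cells received in place of palmitic acid, and the genotype of the line before editing, are not given in the sources. Each genotype is represented by separate clones with 1 library per treatment. In fits that compare each clone with itself, the p-values measure the spread over clones of the change with palmitic acid. In the other fits they measure the spread of levels between clones. Differences between cultures of 1 clone are part of both spreads and cannot be told apart from differences between clones.

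Cells copy their DNA in S phase and divide it in mitosis, and each step has its own set of transcripts. The S phase genes are switched on at the end of G1, when cyclin-dependent kinases inactivate RB family proteins and free E2F transcription factors, which bind E2F sites near the gene starts. The mitotic genes peak later, and in resting cells they are held down by the DREAM complex, which contacts the cell cycle genes homology region (CHR); B-MYB and FOXM1 take over on the same MuvB core when the genes are switched on, together with NF-Y on CCAAT boxes. HepG2 cells divide in culture, whereas most hepatocytes of a healthy liver rest. In RNA from a whole culture, fewer cycling cells and less RNA of a gene in each cell cannot be told apart.

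The gene starts of the 2 sets differ in sequence, and 6 of them are shown because they hold the sites that set S phase genes apart from mitotic genes or, for KIF20A, lack them in the window. Each line gives the 250 bases before a start annotated by RefSeq (GRCh38.p14), read 5′ to 3′ on the gene's own strand, with matches in capitals. The letters searched on both strands were TTTCCCGC, TTTGGCGC, TTTCGCGC and TTTGCCGC for E2F sites, TTTGAA and TTCGAA for CHR elements, and CCAAT for CCAAT boxes (ATTGG on the other strand). GINS2 (chr16:85688955-85689204, minus strand) and MCM6 (chr2:135876444-135876693, minus strand) are S phase genes. MKI67 (chr10:128126424-128126673, minus strand), TOP2A (chr17:40417897-40418146, minus strand), CCNB2 (chr15:59104896-59105145, plus strand) and KIF20A (chr5:138178862-138179111, plus strand) are mitotic.
GINS2: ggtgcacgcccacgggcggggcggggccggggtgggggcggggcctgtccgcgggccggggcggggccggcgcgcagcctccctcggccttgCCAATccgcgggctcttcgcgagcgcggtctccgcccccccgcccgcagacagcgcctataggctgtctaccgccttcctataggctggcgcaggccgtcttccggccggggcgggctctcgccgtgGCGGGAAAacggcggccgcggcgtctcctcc
MCM6: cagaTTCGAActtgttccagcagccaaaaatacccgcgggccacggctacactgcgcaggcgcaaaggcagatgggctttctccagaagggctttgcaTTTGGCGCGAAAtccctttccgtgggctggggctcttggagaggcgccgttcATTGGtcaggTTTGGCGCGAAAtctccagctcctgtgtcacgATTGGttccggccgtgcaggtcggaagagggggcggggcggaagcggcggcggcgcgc
MKI67: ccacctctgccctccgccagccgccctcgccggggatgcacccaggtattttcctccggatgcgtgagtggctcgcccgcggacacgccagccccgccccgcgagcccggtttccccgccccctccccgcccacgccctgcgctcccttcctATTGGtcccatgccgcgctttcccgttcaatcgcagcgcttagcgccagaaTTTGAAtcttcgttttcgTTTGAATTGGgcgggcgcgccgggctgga
TOP2A: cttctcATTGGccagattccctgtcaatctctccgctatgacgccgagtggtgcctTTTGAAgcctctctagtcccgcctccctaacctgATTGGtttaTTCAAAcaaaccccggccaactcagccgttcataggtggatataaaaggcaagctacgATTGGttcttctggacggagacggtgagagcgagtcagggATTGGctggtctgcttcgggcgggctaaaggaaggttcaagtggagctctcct
CCNB2: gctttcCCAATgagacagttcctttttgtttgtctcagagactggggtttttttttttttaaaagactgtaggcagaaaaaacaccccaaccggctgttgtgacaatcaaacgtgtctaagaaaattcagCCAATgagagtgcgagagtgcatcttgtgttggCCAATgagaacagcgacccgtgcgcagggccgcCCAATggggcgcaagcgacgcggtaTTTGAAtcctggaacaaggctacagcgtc
KIF20A: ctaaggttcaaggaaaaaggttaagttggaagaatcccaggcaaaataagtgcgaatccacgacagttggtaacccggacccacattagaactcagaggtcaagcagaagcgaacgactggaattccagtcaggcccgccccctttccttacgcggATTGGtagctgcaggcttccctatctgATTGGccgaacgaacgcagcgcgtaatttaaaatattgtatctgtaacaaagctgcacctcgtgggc

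In GINS2 the capitals nearest the start are an E2F site on the opposite strand, 24 to 31 bases before it, and the other match is a CCAAT box. MCM6 holds 4 E2F matches in 2 places, where matches on the 2 strands overlap each other, and 1 CHR match far from the start, at 241 to 246 bases. MKI67 and TOP2A hold 2 CHR matches each, and in MKI67 the CHR match nearest the start runs into an inverted CCAAT box. CCNB2 has 1 CHR match, 24 to 29 bases before the start, and 4 CCAAT boxes upstream of it. KIF20A has 2 inverted CCAAT boxes and neither of the other matches in these letters. In the GENCODE annotation KIF20A starts further upstream, at 138178719, and so does GINS2, at 85690073 on the minus strand. The windows of KIF20A and GINS2 thus lie inside those gene spans, and the bases before these other starts were not searched. The GENCODE starts of CCNB2, at 59105078, and TOP2A, at 40417950 on the minus strand, fall within the printed bases. The CHR match and nearest CCAAT box of CCNB2 thus lie inside its gene span, as does the nearest CCAAT box of TOP2A. Distances given here are from the RefSeq starts.

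Windows from 250 bases before to 50 after the start were given for 38 of the 46 genes, 17 S phase genes with 27 windows and 21 mitotic genes with 23, since a gene can have several starts and such windows can overlap. AURKA, BIRC5, CCNE2, MCM4, MCM5, TPX2, TTK and UBE2C had no entry. An E2F site was found in 11 of the 27 S phase windows (40.7%), in 4 of the 23 mitotic windows (17.4%) and in 3.31% of all 35116 windows. A CHR element was found in 16 of the 23 mitotic windows (69.6%), in 2 of the 27 S phase windows (7.41%) and in 16.4% of all windows. The CCAAT box did not part the sets in the same way, with 74.1% of S phase windows, 82.6% of mitotic windows and 34.6% of all windows. Both a CHR element and a CCAAT box stood in 60.9% of the mitotic windows, 7.41% of the S phase windows and 6.38% of all. Counted by gene, 10 of 17 S phase genes and 3 of 21 mitotic genes had an E2F match in any window, and 2 and 15 had a CHR match. Over all 27305 genes with a window, 3.99% had an E2F match in any window and 19.5% a CHR match. These are matches of letters, not measured binding.

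**Figure D1:**
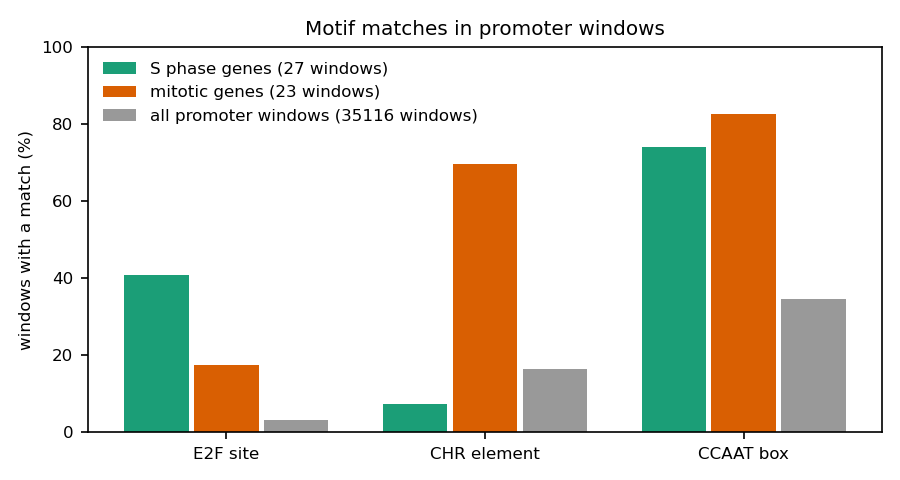
Share of promoter windows, in percent, with at least 1 match to an E2F site, a CHR element or a CCAAT box, for S phase genes (27 windows), mitotic genes (23 windows) and all 35116 windows. The E2F bar is highest for S phase genes (40.7%), the CHR bar is highest for mitotic genes (69.6%), and the CCAAT bars of both sets lie above that of all windows (34.6%).

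The libraries held 9314342 to 15777669 reads. Single members had from 19 reads (CCNE2, which drives entry into S phase) to 7507 reads (MKI67) in a library. Levels are given in units, the deposited counts relative to library size (CPM) with the authors' scaling between libraries; they are not divided by gene length, so levels are compared between libraries and not between genes. All 12 hepatocyte markers were present in every library, with a summed level of 18496 units (CC clone 3 with palmitic acid) to 52148 units (a GC control library). ALB ranged from 17.7 to 820.4 units, TTR from 1.63 to 145 units and GPC3 from 9.50 to 3143.6 units (median 2428). The highest medians, and so most of the sum, were those of APOB (14952 units) and AFP (11377 units). Of the markers of stellate cells, endothelium and macrophages, COL1A1 was at 0 in 2 libraries, STAB2 at 0 in 5 and CDH5 at 0 in 1, and the summed levels over libraries were 59.7 to 135 units for 5 stellate, 9.44 to 33.7 for 4 endothelial and 392 to 1060.3 for 3 macrophage genes, the last mostly from LYZ. Of the same marker lists COL1A2, DCN, LUM, VWF, KDR, PTPRC, CD163 and CD3E had no matching row and were not analysed here. GG clone 6 and CC clone 1 stood apart from the other clones in the cell cycle genes, as the next paragraphs give, and the spreads, median changes and counts of calls are given with and without them.

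The level of the cell cycle genes depended first on the clone. In control cells GG clone 6 had the lowest level of 41 of the 46 genes (GC clone 2 had the lowest of the other 5), and CC clone 1 had the highest level of 37. Under palmitic acid GG clone 6 was lowest in 46 of 46 and CC clone 1 highest in 32, with GG clone 2 highest in 13. MKI67, the nuclear protein whose antibody stain is a standard mark of dividing cells (chromosome 10, 128096659 to 128126385, minus strand, GRCh38), shows this range. In control cells, with clones in the order GG 1, 2, 6, GC 2, 3, 4 and CC 1, 3 here and below, MKI67 was at 256, 215 and 53.0 units in GG, 184, 259 and 221 in GC and 475 and 153 in CC. Under palmitic acid MKI67 was at 174, 231 and 29.5 units in GG, 183, 156 and 144 in GC and 505 and 94.3 in CC. CC clone 1 lay above and GG clone 6 below all other clones under both conditions, and the values of each genotype overlapped those of the other genotypes. The highest level was 8.95 times the lowest in control and 17.1 times under palmitic acid.

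KIF20A, a kinesin motor of cytokinesis (chromosome 5, 138178719 to 138187715, plus strand), had the widest range in control cells, at 56.5, 68.0 and 10.6 units in GG, 24.1, 45.6 and 45.5 in GC and 124 and 26.3 in CC, an 11.6-fold span. CC clone 1 held the high end and GG clone 6 the low end. The narrowest ranges in control cells were those of the S phase genes MCM3 (257 to 387 units), MCM7 (127 to 205 units), CCNE2 (2.17 to 3.67 units) and CHEK1, the replication checkpoint kinase (24.9 to 44.4 units). RFC4, a subunit of the clamp loader, departed from the common order: in control cells it was at 19.0, 23.1 and 13.2 units in GG, 16.6, 27.1 and 31.2 in GC and 23.5 and 20.1 in CC, highest in GC clone 4.

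The mitotic genes spread more over clones than the S phase genes. In control cells the median SD over the 8 clones, on the log2 scale, was 0.56 for the 26 mitotic genes, 0.39 for the 20 S phase genes and 0.28 for all tested genes. Under palmitic acid these values were 0.74, 0.58 and 0.30. Without GG clone 6 the control values were 0.46 for mitotic and 0.31 for S phase genes, against 0.26 for all genes. Without both GG clone 6 and CC clone 1 they were 0.33, 0.28 and 0.25. Both clones were picked for the lowest and highest levels of these same genes, so a narrower spread without them follows from that choice. Under palmitic acid the values were 0.55, 0.44 and 0.29 without GG clone 6, and 0.44, 0.37 and 0.29 without both clones. The span from the lowest to the highest clone in control had a median of 3.50-fold for mitotic genes, 2.26-fold for S phase genes and 1.85-fold for all genes. No test was made of these spreads.

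**Figure D2:**
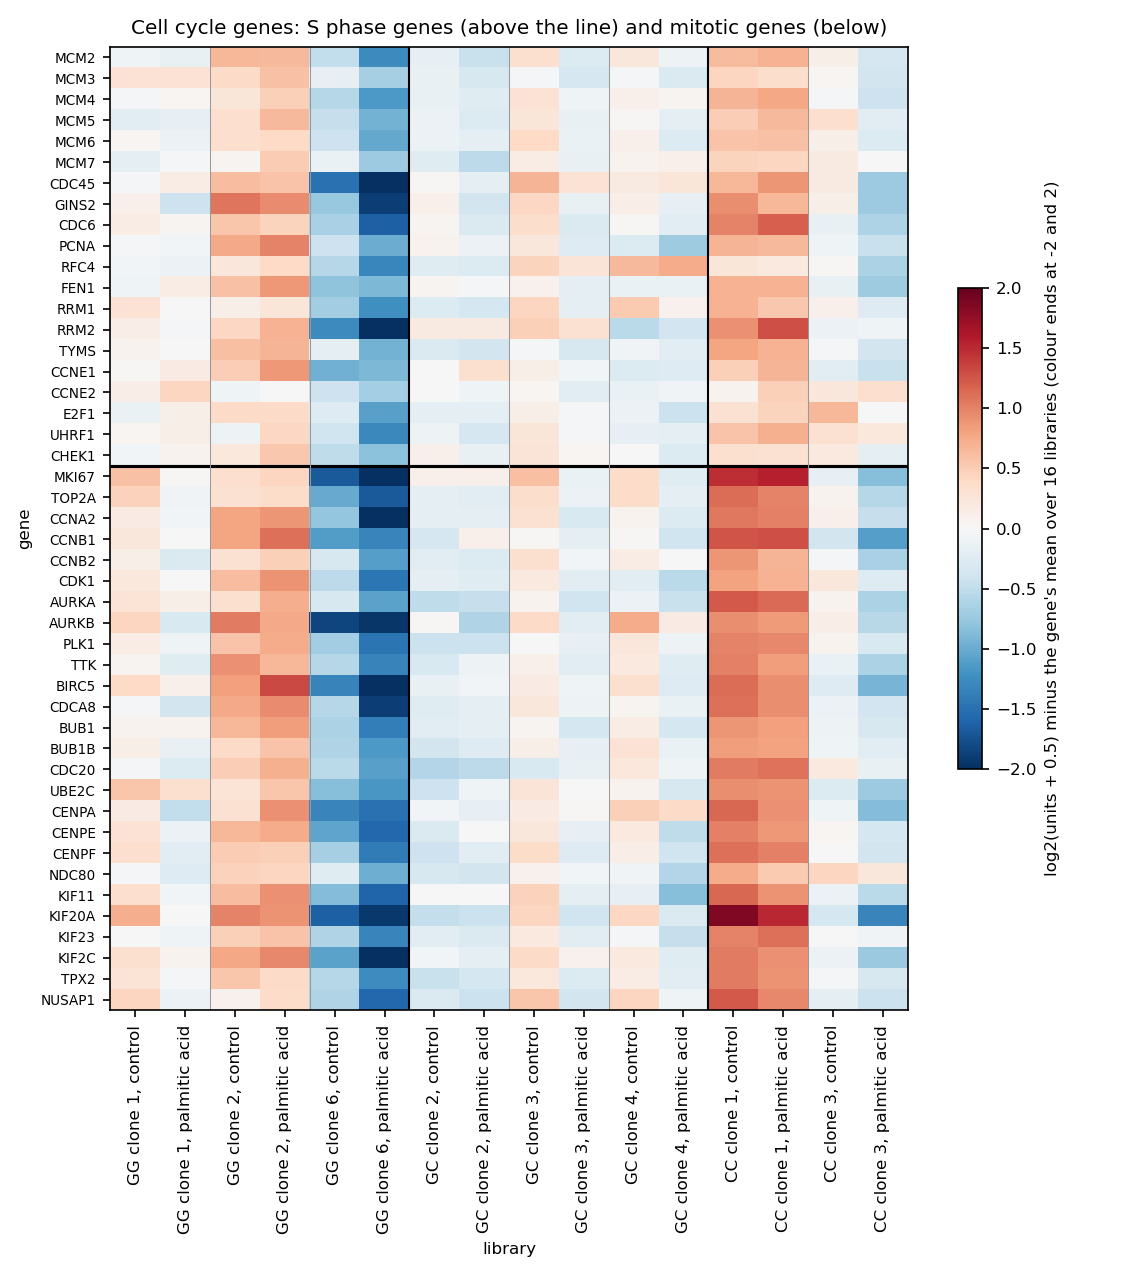
Colour gives, for each of the 46 genes (rows) and 16 libraries (columns), log2 of the level plus 0.5 minus the gene's mean over the libraries; the colour scale ends at -2 and 2. The columns of GG clone 6 are blue and those of CC clone 1 red over nearly all rows, while the other clones differ less.

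Most of the variation lay between clones of the same genotype. Of the sum of squares of the mitotic genes, 77.8% belonged to clones nested in a genotype, 11.8% to genotype, 4.86% to palmitic acid, 0.428% to the interaction of both and 5.07% to the residual. For S phase genes these shares were 73.8%, 13.7%, 4.69%, 0.937% and 6.87%, and for all tested genes 61.3%, 19.9%, 8.17%, 2.94% and 7.61%. The shares rest on 5 degrees of freedom for clones, 2 for genotype, 1 for treatment, 2 for the interaction and 5 for the residual. CCNE1, the cyclin that with CDK2 starts S phase, had the highest share between clones of a genotype (93.2%). NDC80, a kinetochore protein that holds microtubules, had the lowest share between clones (44.1%) and the highest between genotypes (40.6%). GINS2 had the highest share with treatment (13.1%).

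**Figure D3:**
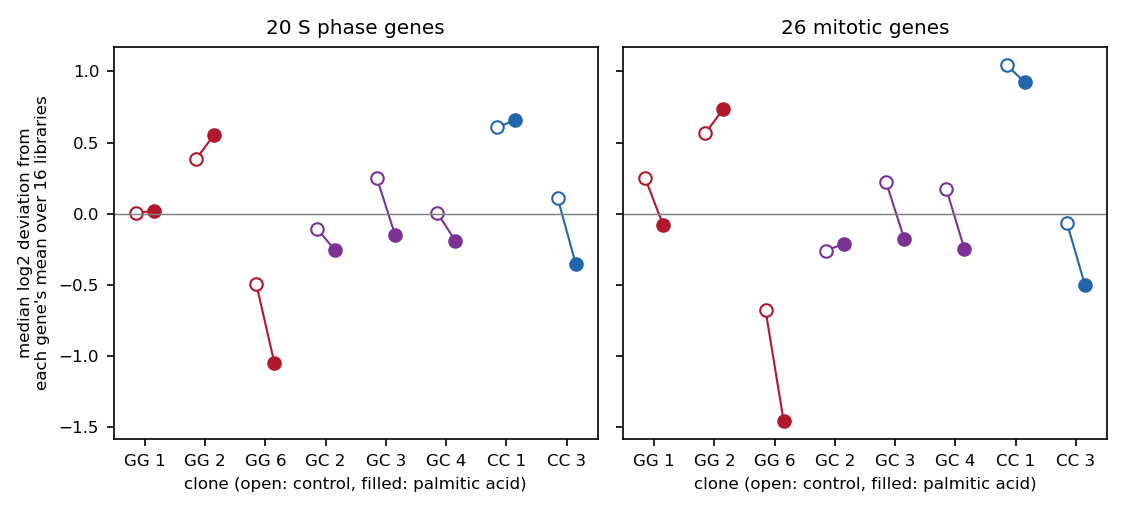
For each clone, the median over the 20 S phase genes (left) or 26 mitotic genes (right) of the log2 deviation from each gene's mean over 16 libraries, in control (open points) and with palmitic acid (filled points). The mitotic median runs from -1.46 in GG clone 6 with palmitic acid to 1.05 in CC clone 1 control, a wider range than the S phase median, which runs from -1.05 to 0.66.

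A subset of these genes fell with palmitic acid when each clone was compared with itself. In limma with the clone as a block, 13 of the 46 genes fell and 0 rose (adjusted p under 0.05 over all tested genes), and the other 33 did not pass. This is 28.3% of the genes, where 18.9% of all tested genes were called, 9.52% downward and 9.33% upward. Among mitotic genes 10 of 26 fell (38.5%), and among S phase genes 3 of 20 fell (15.0%). Without the block, 0 of 46 were called by limma, 0 at an unadjusted p under 0.05, with 0.0458% of all genes called; edgeR and DESeq2 without the block also called 0 of the 46. The changes themselves are the same in both fits. By their labels, both libraries with the same number and genotype come from 1 clone.

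As a whole the mitotic genes had a median log2 change of -0.29 (range -0.51 to -0.13), with 26 of 26 below 0. The S phase genes had a median of -0.20 (range -0.53 to 0.08), with 18 of 20 below 0. Over all tested genes the median was -0.01, and 51.5% were below 0. The median change corresponds to 0.820 times the control level for mitotic genes and 0.871 times for S phase genes. Changes of genes within a set are not independent, since they rise and fall together over clones.

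**Figure D4:**
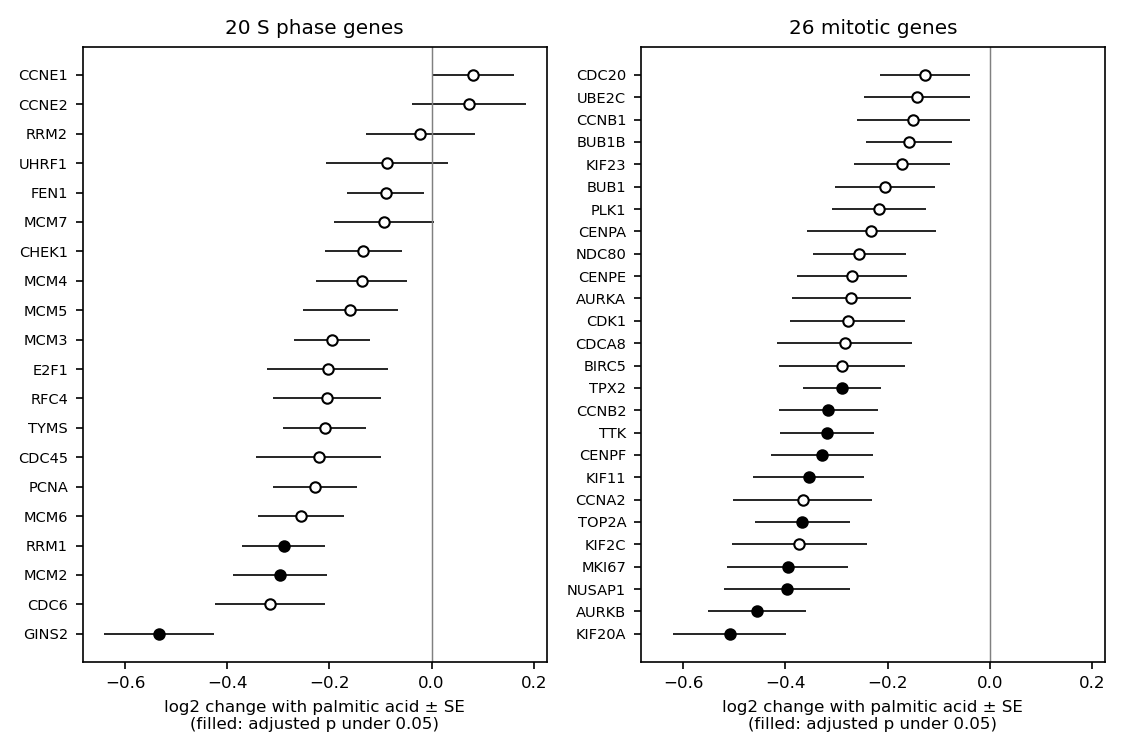
Log2 change with palmitic acid over the 3 genotypes for each S phase gene (left) and mitotic gene (right), as points with bars of 1 SE from limma with clone block (8 clones); filled points have an adjusted p under 0.05. All 26 mitotic genes lie left of 0, and CCNE1 and CCNE2 lie right of it.

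The replicative helicase, which unwinds DNA ahead of the fork, consists of the MCM ring with CDC45 and the GINS complex, and 2 of its 8 members fell. GINS2, a GINS subunit (chromosome 16, 85676198 to 85690073, minus strand), was in control cells at 19.99, 39.4 and 10.8 units in GG, 20.003, 24.8 and 20.4 in GC and 35.7 and 20.3 in CC. With palmitic acid GINS2 was at 13.7, 36.0 and 4.66 units in GG, 14.2, 16.6 and 16.5 in GC and 29.7 and 11.0 in CC. GINS2 was lower with palmitic acid in 8 of 8 clones, although the values of the control and treated groups overlap, and fell by 0.53 ± 0.11 on the log2 scale (SE, 8 clones, adjusted p = 0.00689), the largest fall among the 46 genes.

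MCM2, a subunit of the MCM ring (chromosome 3, 127598223 to 127622436, plus strand), was in control cells at 91.9, 155 and 69.3 units in GG, 86.4, 121 and 113 in GC and 151 and 106 in CC. With palmitic acid MCM2 was at 88.0, 153 and 39.7 units in GG, 71.1, 80.5 and 91.0 in GC and 157 and 76.6 in CC. CC clone 1 alone was higher with palmitic acid, and the change was -0.30 ± 0.09 (adjusted p = 0.0432). The other MCM subunits did not pass, with changes from -0.26 (MCM6, adjusted p = 0.0568) through -0.19 (MCM3), -0.16 (MCM5) and -0.14 (MCM4) to -0.09 (MCM7, adjusted p = 0.536). CDC45 had a log2 change of -0.22 (adjusted p = 0.227), with levels of 5.28 to 25.7 units over the control libraries and 3.47 to 29.4 units over the treated ones, GG clone 6 being lowest in both.

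Among the genes that supply nucleotides, RRM1, the large subunit of ribonucleotide reductase (chromosome 11, 4094707 to 4138876, plus strand), fell and its partner RRM2 did not pass. RRM1 was at 63.1, 56.0 and 31.7 units in GG, 42.4, 69.7 and 74.0 in GC and 83.4 and 55.1 in CC in control cells. Under palmitic acid RRM1 was at 51.0, 60.8 and 21.6 units in GG, 40.2, 45.1 and 54.6 in GC and 75.3 and 43.1 in CC, a change of -0.29 ± 0.08 (adjusted p = 0.0301), with GG clone 2 higher and the other 7 clones lower. RRM2, the small subunit whose supply limits the enzyme in S phase (chromosome 2, 10120698 to 10131419, plus strand), was at 81.6, 98.7 and 30.3 units in GG, 84.2, 103 and 50.8 in GC and 139 and 68.5 in CC in control cells. With palmitic acid RRM2 was at 72.8, 119.7 and 16.0 units in GG, 84.3, 91.4 and 56.6 in GC and 182 and 69.98 in CC, higher in 5 and lower in 3 clones, with a change of -0.02 ± 0.11 (adjusted p = 0.904). TYMS, which makes thymidylate, had a log2 change of -0.21 (adjusted p = 0.0948).

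The remaining S phase genes did not pass the test. CDC6, which loads the MCM ring at origins, had a log2 change of -0.32 ± 0.11 (adjusted p = 0.0622). PCNA, the sliding clamp of the polymerases, had a log2 change of -0.23 (adjusted p = 0.0752), RFC4 at -0.21 and the flap nuclease FEN1 at -0.09. E2F1, the activator of the S phase genes, had a log2 change of -0.20 (adjusted p = 0.252), CHEK1 at -0.13, and UHRF1, which brings the maintenance DNA methylase to new DNA, at -0.09. The E cyclins had the only changes above 0, 0.08 ± 0.08 for CCNE1 (adjusted p = 0.494) and 0.07 ± 0.11 for CCNE2 (adjusted p = 0.683). CCNE1 was at 21.4, 30.02 and 10.6 units in GG, 21.1, 22.9 and 17.3 in GC and 29.5 and 18.0 in CC in control cells. Under palmitic acid it was at 23.8, 39.0 and 11.1 units in GG, 26.4, 20.2 and 17.6 in GC and 34.2 and 15.4 in CC, higher in 6 of 8 clones. CCNE2 rests on few reads, a median of 39 per library.

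MKI67 fell by 0.40 ± 0.12 on the log2 scale (adjusted p = 0.0385), with 6 of 8 clones lower and GG clone 2 and CC clone 1 higher. By group its level was 175 ± 107 units in GG control cells (SD, n = 3) and 145 ± 104 with palmitic acid. In GC it was 221 ± 37.5 and 161 ± 19.7 (n = 3), and in CC 314 ± 228 and 299.6 ± 290.3 (n = 2). The SD within GG and CC exceeded the difference between treated and control cells. TOP2A, the topoisomerase that untangles chromosomes before they part (chromosome 17, 40388516 to 40417950, minus strand), was in control cells at 283, 254 and 102 units in GG, 179, 263 and 265 in GC and 444 and 215 in CC. Under palmitic acid TOP2A was at 195, 264 and 63.9 units in GG, 178, 189 and 181 in GC and 411 and 139 in CC, with GG clone 2 higher and 7 clones lower, a change of -0.37 ± 0.09 (adjusted p = 0.0194).

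Of the mitotic cyclins and their kinase, CCNB2 fell and the other 3 did not pass. CCNB2, a B-type cyclin that activates CDK1 (chromosome 15, 59105078 to 59125045, plus strand), was at 38.7, 44.4 and 28.5 units in GG, 30.8, 44.9 and 39.7 in GC and 66.3 and 35.2 in CC in control cells. With palmitic acid CCNB2 was at 29.2, 49.8 and 16.3 units in GG, 29.6, 34.3 and 35.5 in GC and 57.8 and 22.7 in CC, a change of -0.32 ± 0.10 (adjusted p = 0.0423). CCNA2, the cyclin of S phase and early mitosis, had a log2 change of -0.37 ± 0.14 (adjusted p = 0.0824), a larger change with a wider error than that of CCNB2. CDK1 had a log2 change of -0.28 (adjusted p = 0.107), and CCNB1, the main cyclin of mitotic entry, at -0.15 (adjusted p = 0.365), lower in 5 and higher in 3 clones.

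Among the mitotic kinases AURKB and TTK fell. AURKB, the kinase of the chromosomal passenger complex (chromosome 17, 8204733 to 8210600, minus strand), was at 14.5, 22.3 and 2.61 units in GG, 10.8, 14.1 and 18.1 in GC and 20.8 and 11.7 in CC in control cells. With palmitic acid AURKB was at 8.55, 18.3 and 2.37 units in GG, 6.81, 9.15 and 12.0 in GC and 19.6 and 7.05 in CC, lower in 8 of 8 clones, a change of -0.46 ± 0.10 (adjusted p = 0.00835). GG clone 6 was far below all other clones in both conditions. TTK, the kinase that starts the spindle checkpoint, changed by -0.32 ± 0.09 (adjusted p = 0.0331), with levels of 13.4 to 40.9 units over control and 7.67 to 36.2 over treated libraries. AURKA, the centrosome kinase (change -0.27, adjusted p = 0.125), and PLK1, a kinase of mitotic entry and exit (-0.22, adjusted p = 0.119), did not pass. The partners of AURKB in the passenger complex, BIRC5 (-0.29) and CDCA8 (-0.28), also missed the threshold, with adjusted p values of 0.125 and 0.155.

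Of the spindle motors, KIF20A and KIF11 fell. KIF20A was under palmitic acid at 33.6, 63.7 and 8.49 units in GG, 25.0, 25.6 and 27.8 in GC and 97.5 and 13.2 in CC, higher than its control value in GC clone 2 and lower in the other 7 clones, a change of -0.51 ± 0.11 (adjusted p = 0.00964). KIF11, the motor that pushes the spindle poles apart, changed by -0.35 ± 0.11 (adjusted p = 0.0437), with 23.7 to 98.1 units over control and 14.1 to 83.5 over treated libraries. KIF2C, which depolymerizes microtubules at centromeres, had a log2 change of -0.37 ± 0.13 (adjusted p = 0.0698), and KIF23, a motor of the central spindle, at -0.17 (adjusted p = 0.222). Both spindle assembly factors fell: TPX2, which activates AURKA on the spindle, by 0.29 ± 0.08 (adjusted p = 0.0227), and NUSAP1, which bundles microtubules, by 0.40 ± 0.12 (adjusted p = 0.045).

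At the kinetochore CENPF, a large protein of its outer layer, fell by 0.33 ± 0.10 (adjusted p = 0.0405), with 74.9 to 255 units over control and 44.8 to 239 over treated libraries. NDC80 was lower in 8 of 8 clones without passing (change -0.26 ± 0.09, adjusted p = 0.0712). CENPE, a kinetochore motor (-0.27), and CENPA, the histone that marks centromeres (-0.23), did not pass. BUB1 (-0.20) and BUB1B (-0.16), which act with TTK in the spindle checkpoint, did not pass either. The 2 genes of the anaphase-promoting complex pathway had the smallest changes among mitotic genes, -0.13 for CDC20, its activator (adjusted p = 0.341), and -0.14 for UBE2C, its ubiquitin-conjugating enzyme (adjusted p = 0.362).

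**Figure D5:**
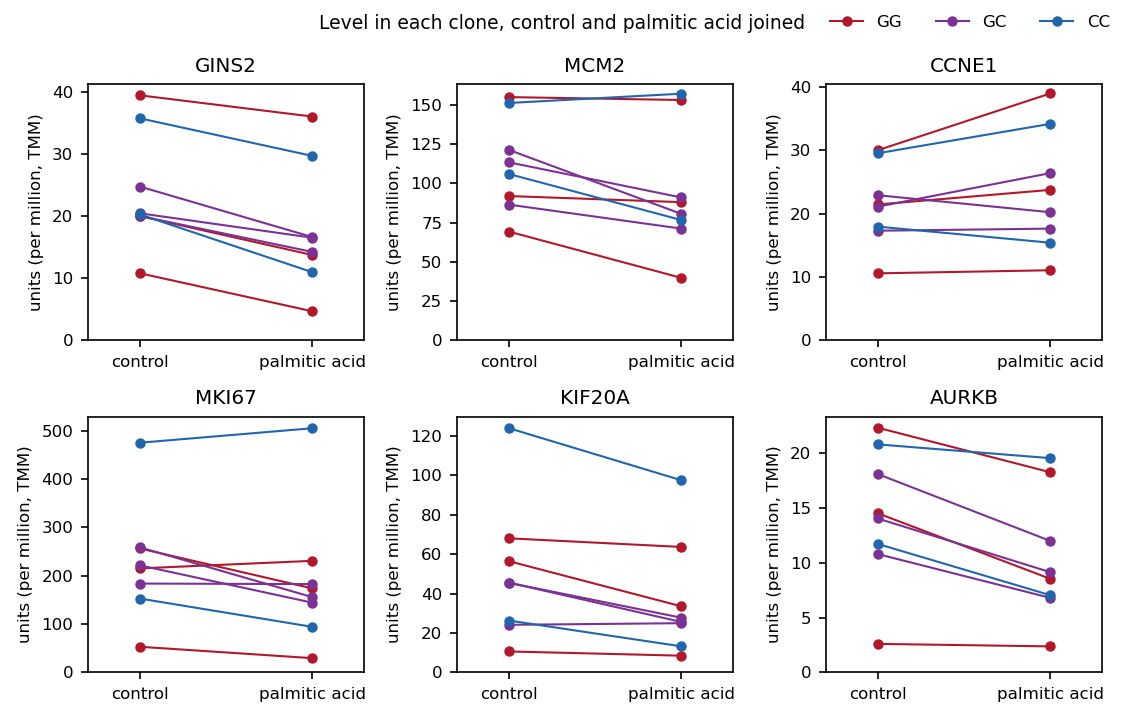
Levels of 6 genes in each clone, in units on linear axes from 0, with the control and palmitic acid library of a clone joined by a line and the genotype in colour. GINS2 and AURKB are lower with palmitic acid in 8 of 8 clones, MKI67 in 6 of 8, and CCNE1 is higher in 6 of 8; the clones lie further apart than the ends of most lines.

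Clones differed in the median change of each set. The mitotic median change was lowest in GG clone 6, at -0.73, and was -0.47 in CC clone 3, -0.43 in GC clone 4, -0.40 in GC clone 3 and -0.29 in GG clone 1. It was -0.11 in CC clone 1, 0.03 in GC clone 2 and 0.17 in GG clone 2, so that the last pair did not share the direction. The S phase median change followed with -0.59 in GG clone 6, -0.39 in CC clone 3, -0.30 in GC clone 3, -0.18 in GC clone 4 and -0.12 in GC clone 2. It was 0.03 in GG clone 1, 0.03 in CC clone 1 and 0.19 in GG clone 2. CC clone 1 and GG clone 2 had the highest mitotic levels in control cells and GG clone 6 the lowest, while GC clone 2, whose mitotic median change was near 0, had the next lowest.

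Within a clone the mitotic median change was below the S phase median change in 7 of 8 clones, the exception being GC clone 2 (difference 0.15). The difference had a median of -0.12 and an SD of 0.14 over the 8 clones, and its lowest value was -0.32 in GG clone 1, where S phase genes were near 0. The median difference was thus smaller in size than the SD, which gives the spread of single clones and not the error of the median. No test was made of the gap between the sets. Of the 46 genes 34 were lower with palmitic acid in at least 6 of 8 clones, 23 mitotic and 11 S phase genes, where 29.2% of all tested genes were lower in as many. GINS2, AURKB and NDC80 were lower in every one of the 8 clones, and 6.79% of all tested genes were.

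The count of falls depended on single clones. With the block, 4 genes were called without GG clone 1, 4 without GG clone 6, 3 without GC clone 3, 3 without GC clone 4 and 2 without CC clone 3, each of them among the 13. Without GG clone 2 there were 26, including all 13, and without CC clone 1 there were 21, including 12 of the 13; all calls were downward. Without GC clone 2 there were 13, of which 11 were among the original 13. The shares of all genes that follow count calls in both directions, whereas every call on the 46 genes was downward. The 2 kinds of share are thus not alike, and downward shares of all genes in these fits are not given here. The calls over all genes shifted as well, from 18.9% of all tested genes with 8 clones to 11.7% without GG clone 1, 15.6% without GG clone 6, 11.1% without GC clone 3, 13.3% without GC clone 4 and 9.58% without CC clone 3. In each of these 5 fits the share of the 46 genes called was the lower one, at 8.70%, 8.70%, 6.52%, 6.52% and 4.35%. The share of the 46 genes was above that of all genes without GG clone 2 (56.5% against 16.0%), GC clone 2 (28.3% against 14.7%) and CC clone 1 (45.7% against 28.7%). GINS2 and AURKB were called in each of the 8 fits that left out 1 clone. Without GG clone 6 the median change was -0.22 for mitotic and -0.11 for S phase genes, without CC clone 1 it was -0.36 and -0.26, and without CC clone 3 it was -0.25 and -0.07.

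Of the 12 hepatocyte markers 6 fell with the block and the other 6 did not pass, with a median change of -0.31, where 9.52% of all tested genes were called downward. Their summed level was 22910 to 41134 units in treated and 24244 to 47273 units in control GG cells, 29586 to 40140 and 35712 to 52148 in GC, and 18496 to 37804 and 32958 to 46189 in CC. In GG clone 6 it was 24244 units in control and 22910 with palmitic acid, each the lowest of its group. The 3 hepatocyte markers with the smallest p in limma with the block were FGB, APOA1 and ALB. FGB changed by -1.55 ± 0.13 (adjusted p = 9.27e-05) and APOA1 by -0.45 ± 0.10 (adjusted p = 0.0104), both lower in 8 of 8 clones. ALB changed by -0.40 ± 0.09 (adjusted p = 0.0107), lower in 6 and higher in 2 clones. Of the stellate cell markers TAGLN (1.25 ± 0.30, adjusted p = 0.016) and PDGFRB (1.12 ± 0.30, adjusted p = 0.025) rose with the block in limma, and ACTA2 fell (-0.56 ± 0.12, adjusted p = 0.0080). The endothelial marker PECAM1 (-0.59 ± 0.12, adjusted p = 0.0062) and the macrophage marker CD14 (-1.03 ± 0.20, adjusted p = 0.0057) fell as well, while LYVE1, LYZ, CD68 and COL3A1 did not pass. CD14, at 0.446 to 4.53 units (median 1.32), and PDGFRB, at a median of 1.81 units, lay near the filter of 1 unit. TAGLN was higher in 6 and lower in 2 clones, and PDGFRB higher in 7 and lower in 1. The part of these markers in the changes of the cell cycle genes was not tested.

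No difference between genotypes in the response of these genes passed a test. Within GG, 0 of 46 genes were called with the block (0.84% of all genes called; smallest adjusted p = 0.137, 11 genes at an unadjusted p under 0.05). Within GC it was 0 of 46 (1.54% of all genes; smallest adjusted p = 0.079, 12 genes unadjusted), and within CC 0 of 46 (2.3% of all genes; smallest adjusted p = 0.128, 2 genes unadjusted). The median change of mitotic genes was -0.30 in GG, -0.26 in GC and -0.30 in CC, and that of S phase genes -0.13, -0.18 and -0.20. These medians rest on single clones: in GG the mitotic and S phase medians were -0.06 and 0.10 without clone 6 and -0.51 and -0.30 without clone 2. In CC they were -0.11 and 0.03 without clone 3 and -0.47 and -0.39 without clone 1, each the value of 1 clone. In GC the mitotic median was -0.17 without clone 3 and -0.41 without clone 2. Tests of the difference in response called 0 of 46 genes for GG against CC (0.00764% of all genes called), 0 between GC and CC (0.00764%) and 0 between GG and GC (0%), with 0 of 46 at an unadjusted p under 0.05 in each. These tests had a median SE of 0.22 to 0.25 on the log2 scale per gene, about as large as the median change itself.

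Levels between genotypes were compared next, in fits without block because genotypes hold different clones. In control cells 0 of 46 genes were called for GG against CC, GC against CC or GG against GC (0% of all genes called in each), and 0 of 46 had an unadjusted p under 0.05. Under palmitic acid it was again 0 of 46 in each, with 0.00764% of all genes called for GG against CC, 0.00764% between GC and CC, and 0% between GG and GC. The median difference of GG from CC over the 46 genes was -0.46 in control and -0.43 under palmitic acid on the log2 scale. Single clones set its size and, under palmitic acid, its direction: in control it was -0.12 without GG clone 6 and -0.05 without CC clone 1, and under palmitic acid 0.08 without GG clone 6 and 0.11 without CC clone 1. It was larger without GG clone 2, at -0.69 and -0.95, and without CC clone 3, at -0.90 and -1.13. The median difference of GC from CC was -0.36 in control and -0.44 under palmitic acid, and 0.10 and 0.13 without CC clone 1, but -0.87 and -1.02 without CC clone 3. GG differed from GC by -0.08 in control and -0.04 under palmitic acid, by 0.31 and 0.46 without GG clone 6, and by -0.33 and -0.47 without GG clone 2. For MKI67 the control difference of GG from CC was -0.91, and it was -0.20 without GG clone 6, -0.09 without CC clone 1 and -1.73 without CC clone 3.

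Other genes of the same pathways were read from lists chosen by function, to be read against the 9.52% of all tested genes called downward and the 9.33% called upward. The lists were chosen with earlier results of these data known, so their counts are no independent check. Of 53 other replication genes, 11 fell and 0 rose with the block (median -0.22): CDT1, which works with CDC6 in loading the MCM ring, changed by -0.44 ± 0.08, the clamp loader subunit RFC1 by -0.24 ± 0.06 and the polymerase POLE by -0.40 ± 0.10. Of 61 other mitotic genes, 14 fell and 0 rose (median -0.28). ESPL1, the protease that releases sister chromatids, changed by -0.44 ± 0.08, and the kinetochore genes KNTC1 and KNL1 (listed as CASC5) by -0.42 ± 0.09 and -0.33 ± 0.08. Of 20 genes of the E2F and DREAM factors, 6 fell and 1 rose (median -0.13). The falls included B-MYB (MYBL2, -0.44 ± 0.09), the RB relative RBL1 (-0.42 ± 0.10) and the repressor E2F8 (-0.42 ± 0.11), and the rise was E2F3 (0.24 ± 0.06), named after its value was seen.

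Of 26 regulators of G1, 5 rose, 5 fell and 16 did not pass, with a median of -0.04. SKP2, which marks the CDK inhibitor p27 for destruction, fell (-0.40 ± 0.07, adjusted p = 0.0028), and CDKN1A, the CDK inhibitor p21, rose (0.33 ± 0.06, adjusted p = 0.0038). Another CDK inhibitor, CDKN2C, fell (-0.54 ± 0.11, adjusted p = 0.0067). Chosen after their values were seen, the neighbouring INK4 inhibitor genes CDKN2B (1.20 ± 0.25) and CDKN2A (0.59 ± 0.13) rose, as did the D cyclins CCND2 (0.23 ± 0.07) and CCND3 (0.30 ± 0.09), while CCNG1 (-0.26 ± 0.06) and the phosphatases CDC25C (-0.51 ± 0.11) and CDC25B (-0.32 ± 0.09) fell. CDKN2B and CDKN2A lie beside each other with an antisense transcript over the locus, and whether the counting used strand is not given, so their reads may not be fully parted. Without the block none of the genes in these 4 lists was called, with 2 G1 regulators, 3 E2F and DREAM genes, 0 replication genes and 1 mitotic gene at an unadjusted p under 0.05.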

How the data were processed

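Total RNA was taken with TRIzol, ribosomal RNA was depleted and directional libraries were made, per the labels' protocols. Trimmomatic 0.38, RSEM 1.3.0, Bowtie2, edgeR and the build hg38 are named, without their roles, in the submitters' processing notes. The authors deposited a normalized signal, read here as CPM with 1 scaling factor per library. The smallest nonzero value of a library was taken as 1 read, and 100% of values were whole multiples of it at a tolerance of 0.01. Column totals were 961492 to 1052700. Whether the factors are those of edgeR was not tested. The labels of single treated libraries count from 48 to 55 h, against 48 h in the protocol; no comparison used these hours.

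Log2 of the value plus 0.5 was fitted for 13095 genes (mean over libraries 1 unit or more) by limma 3.58.1 (R 4.3.3) with a mean-variance trend, 2-sided, with Benjamini-Hochberg adjustment at 0.05. The first fit had no block (10 residual degrees of freedom, 13 comparisons), the other the clone as block (5 residual degrees of freedom, 7 comparisons). The change over genotypes is the mean of the changes within GG, GC and CC. Each of the 2 CC clones thus weighs more than a GG or GC clone. Where 1 CC clone was left out, the other alone gave the CC change. In the pairing check, deviations from group means correlated at 0.523 to 0.857 within a clone, highest with the own partner in 8 of 8 clones. With 2 clones in CC the deviations mirror each other, so CC clones 1 and 3 gave the same value (0.744) and count as 1 check. On recovered reads with block, edgeR 4.0.16 called 2379 and DESeq2 1.42.0 called 1918 genes, and without block 2 and 108. Libraries were compared pairwise by chi-square per degree of freedom, which was at least 12.4, so none is a copy. Gene positions are from GENCODE on GRCh38. Members and lists were chosen with earlier results of these data known. All 46 members are named, with the 3 genes of the smallest p of each other list. The model was run on simulated data with 2-fold changes alike in every clone, of which it recovered 100% with block and 86.5% without. Those changes are larger than the change over genotypes of any of the 46 genes. Recovery of smaller or uneven changes was not tested.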

Additional observations from a re-analysis of the deposited data

How the results depend on the processing

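The count of the 46 genes called with palmitic acid over genotypes was 0 without the clone block and 13 with the replicate block, the pairing of a clone's libraries changing that call and no other call on these genes. Without block, leaving out single libraries or clones kept this count at 0. With block, leaving out 1 clone gave 2 (without CC clone 3) to 26 (without GG clone 2), 0 to 1 within GC and 0 to 2 within CC. The values were 4 without GG clone 1, 4 without GG clone 6, 3 without GC clone 3, 3 without GC clone 4 and 21 without CC clone 1; the cause was not tested, beyond fewer clones. The calls over all genes ranged over these fits from 9.58% (without CC clone 3) to 28.7% (without CC clone 1), and in 5 of the 8 the share of the 46 genes called was below that of all genes. These shares of all genes count both directions, while all calls on the 46 genes were downward, so the 2 are not alike. The mitotic minus S phase median change ran from -0.22 to 0.0042 without single libraries, reversed only without the control library of CC clone 1, which leaves its treated partner unpaired. The S phase median ran from -0.33 to -0.03 and the mitotic one from -0.54 to -0.07, and edgeR on recovered reads gave -0.13 and -0.22. Without 1 clone, single genes far from the threshold changed sign: MCM7 (-0.17 to 0.0082, reversed without GG clone 6), UHRF1 (-0.19 to 0.044, without GG clone 6), FEN1 (-0.18 to 0.0037, without CC clone 3) and RRM2 (-0.11 to 0.084, reversed without GG clone 6 at 0.084, GC clone 3 at 0.0060 and CC clone 3 at 0.036). With block, edgeR called 11 of the 13 (CCNB2 adjusted p = 0.0509 and KIF11 0.0535 missed) and DESeq2 called 16, with all 13 among them. Pseudocounts of 0.1 or 2, no filter on low values and equal library totals moved no gene across the threshold; these settings with block were chosen after seeing the data. Equal totals shifted the median of all genes by -0.02. No paired analysis was possible for levels between genotypes because genotypes hold different clones. With 2 or 3 clones a group, no single group could be checked for outlying libraries.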
